A study of Mus musculus with 12 samples.

Results

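The genes described here are 8 genes of the androgen program and the prostate luminal lineage, Foxa1, Hoxb13, Fkbp5, Tmprss2, Pbsn, Krt8, Krt18 and Cdh1, taken by gene name from the 40077 genes of a table for cultured cells and the 34508 genes of a table for tumors. All 8 are listed in both tables, which share 34507 genes. RNA was sequenced from Myc-CaP cells in culture and from s.c. Myc-CaP tumors, 12 libraries in 4 groups of 3. Myc-CaP is a mouse line grown from a prostate tumor of an animal carrying a human MYC transgene under a promoter derived from the probasin gene, so all 4 groups share that transgene and its origin in 1 line. The culture groups were cells given DMSO and cells given YJ1206 at 1 μM for 24 hours. The tumor groups came from male FVB mice, whose age is not given in the sources used here, dosed orally 3 times per week with vehicle or with YJ1206 (100 mg/kg). YJ1206 is a degrader of CDK12 and CDK13, kinases that act on elongating RNA polymerase II. A tumor library also holds RNA of host cells, and in such bulk samples fewer cells of a type and less RNA per cell cannot be told apart.

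Androgen acts in the nucleus of prostate cells, where hormone-bound transcription complexes work on chromatin with pioneer factors, which open closed chromatin, and with coactivators and corepressors. In the prostate androgen drives the secretory program of luminal cells, which line the ducts and carry simple epithelial keratins and E-cadherin. FOXA1 and HOXB13 are DNA-binding partners of the hormone response in this lineage, and Fkbp5, Tmprss2 and Pbsn are among the best known genes that androgen induces.

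The libraries held 13936902 to 26928365 counts on genes, and 3 counts in a library corresponded to 0.111 to 0.215 CPM (counts scaled to a library of 1000000). A group with no library above 3 counts was taken to be at this floor. In each tumor group library 3 lay between libraries 1 and 2 for most genes that differed over 2-fold between those libraries, 97.1% of 768 genes with vehicle and 92.8% of 304 genes with YJ1206, against 70.0% of 20 and 70.6% of 17 genes in the cell groups. The tumor fit was therefore also run with libraries 1 and 2 of each group only. Vehicle tumors carried uneven amounts of muscle RNA, with summed CPM of 8 skeletal muscle genes of 2589, 121 and 1599 against 23.2 to 25.9 in YJ1206 tumors. DMSO and YJ1206 cell libraries carry library numbers of separate series, so library series and treatment cannot be told apart.

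The luminal label held only in part. Foxa1 and Fkbp5 were among the well expressed genes of these cells, whereas Cdh1, Krt18, Tmprss2, Pbsn and Epcam were at or near 0. Levels of different genes are compared here in TPM, transcript abundance scaled for gene length. In DMSO-treated cells Fkbp5 was at 203 ± 1.68 TPM (mean ± SD, n = 3), Foxa1 at 148 ± 1.73, Hoxb13 at 9.03 ± 0.22 and Krt8 at 2.88 ± 0.18. Cdh1, which encodes E-cadherin, had 1, 0 and 0 counts in these libraries, and Krt18, the usual partner of Krt8 in keratin filaments, had 4, 3 and 4. No count of Tmprss2, a membrane serine protease, or of Pbsn, the secreted probasin, was found in any of the 6 cell libraries, which allows up to 0.0303 CPM for each over the 6 libraries together. Pbsn was also at 0 in all 6 tumor libraries, which allows up to 0.0241 CPM. Epcam, an epithelial adhesion gene, had 0 counts in all 6 cell libraries, and in tumors it had 1, 4 and 3 counts with vehicle and 1, 1 and 1 with YJ1206.

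Of 32 luminal and simple epithelial genes in a list written by hand, 16 had a mean over 1 TPM in DMSO-treated cells and 8 had no count in any of the 3 libraries. In vehicle tumors 21 were over 1 TPM. Among members of the list picked after their values were seen, Krt19 was at 145 TPM and Cldn3 at 125 TPM in DMSO-treated cells, and Cldn7 was at 0 there and in both tumor groups. Vim, an intermediate filament gene of mesenchymal cells, was at 293 ± 12.3 TPM in DMSO-treated cells, above Krt8 in each of these libraries. Of the 12 mesenchymal genes in its list 5 were over 1 TPM in these cells and 6 were at the floor. The plot of the luminal list shows this split between well expressed genes and genes at the bottom of the scale.

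**Figure D1:**
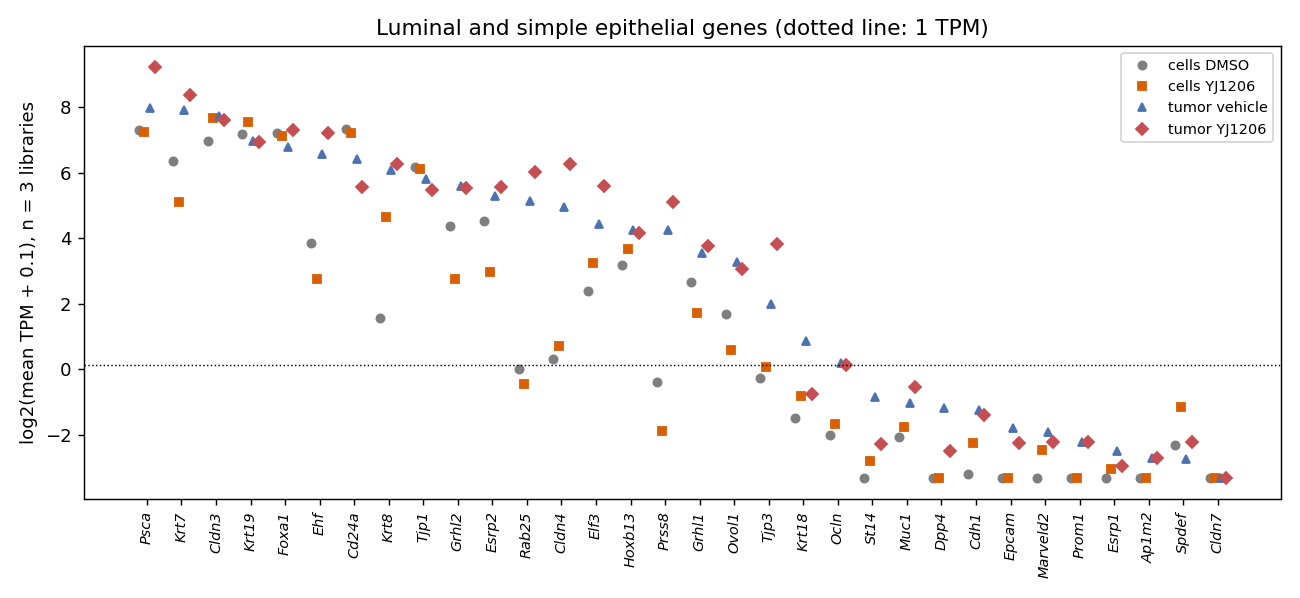
Mean level of 32 luminal and simple epithelial genes in the 4 groups, on a log2(TPM + 0.1) scale, with genes ordered by their level in vehicle tumors and n = 3 libraries per point. Cdh1, Epcam and Cldn7 lie at the low end in all groups, and Krt8 is 2.88 TPM in DMSO-treated cells against 68.2 TPM in vehicle tumors.

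Positions are those of GENCODE vM21 on GRCm38. Foxa1 (ENSMUSG00000035451.7) lies at chr12:57540628-57546916 on the minus strand, Hoxb13 (ENSMUSG00000049604.3) at chr11:96194316-96197447 on the plus strand and Fkbp5 (ENSMUSG00000024222.17) at chr17:28399094-28517527 on the minus strand. Tmprss2 (ENSMUSG00000000385.8) lies at chr16:97564682-97611195 and Pbsn (ENSMUSG00000000003.15) at chrX:77837901-77853623, both on the minus strand. Cdh1 (ENSMUSG00000000303.12) lies at chr8:106603351-106670246 on the plus strand. Krt8 (ENSMUSG00000049382.10) at chr15:101996698-102004482 on the minus strand and Krt18 (ENSMUSG00000023043.7) at chr15:102028180-102032027 on the plus strand are neighbours, 23697 bases apart and pointing away from each other. All are protein-coding genes.

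RefSeq promoter sequences on GRCm38.p6 were found for 6 of the 8 genes, and the 250 bases upstream of the RefSeq start are printed for 4 of them. Foxa1 and Pbsn are shown because they hold the only motif matches, and Krt8 and Krt18 because these neighbours encode partner keratins and had very unequal levels. Each runs 5′ to 3′ toward the start, and capitals mark a match to a searched motif. RefSeq and GENCODE starts differ here, so upstream refers to the RefSeq start only. By the GENCODE positions above, the Foxa1 window lies wholly inside the gene, as does that of Fkbp5, which is not printed. The Krt8, Krt18 and Pbsn windows reach into their genes.
Foxa1 (chr12:57546112-57546361, minus strand): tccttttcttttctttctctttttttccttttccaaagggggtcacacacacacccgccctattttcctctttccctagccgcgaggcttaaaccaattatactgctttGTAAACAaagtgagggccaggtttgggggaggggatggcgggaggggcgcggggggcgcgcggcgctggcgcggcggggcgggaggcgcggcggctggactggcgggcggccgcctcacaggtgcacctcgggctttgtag
Krt8 (chr15:102004343-102004592, minus strand): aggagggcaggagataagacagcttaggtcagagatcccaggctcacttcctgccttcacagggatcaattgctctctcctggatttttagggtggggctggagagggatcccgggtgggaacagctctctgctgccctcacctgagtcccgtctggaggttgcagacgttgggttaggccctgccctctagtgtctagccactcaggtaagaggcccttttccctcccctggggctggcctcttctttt
Krt18 (chr15:102027966-102028215, plus strand): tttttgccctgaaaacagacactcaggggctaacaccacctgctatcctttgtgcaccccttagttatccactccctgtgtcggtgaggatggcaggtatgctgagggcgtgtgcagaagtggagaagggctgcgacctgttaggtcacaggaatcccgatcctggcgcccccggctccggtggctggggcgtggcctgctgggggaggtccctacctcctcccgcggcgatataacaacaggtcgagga
Pbsn (chrX:77853501-77853750, minus strand): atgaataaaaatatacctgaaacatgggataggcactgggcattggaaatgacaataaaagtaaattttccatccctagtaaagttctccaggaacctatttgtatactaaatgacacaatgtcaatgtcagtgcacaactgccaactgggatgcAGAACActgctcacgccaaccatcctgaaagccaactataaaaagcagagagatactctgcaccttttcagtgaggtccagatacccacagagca
The full androgen response element, which is the short motif below and its inverse around 3 free bases, was in 0.00913% of 32851 mouse promoters of this length and in none of the 6. The short motif AGAACA, or TGTTCT on the other strand, was in 16.1% of them and among the 6 only in Pbsn. The Pbsn match lay at position -95 from the RefSeq start, inside the gene as GENCODE places it. The forkhead motif TGTTTAC, or GTAAACA on the other strand, was in 3.17% and among the 6 only in Foxa1. It lay at position -141 from the RefSeq start, inside the gene as GENCODE places it. These are matches of letters, and binding was not measured.

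The first comparison asked how YJ1206 changed these genes in culture. Krt8 rose 10.8-fold, the largest change among the 4 genes that could be tested, and Hoxb13 rose 1.73-fold. Foxa1 and Fkbp5 were slightly higher after TMM scaling, but the direction turned for Foxa1 in TPM and for Fkbp5 both in TPM and under scaling by total counts. Values in this and the next comparison are CPM after TMM scaling, which assumes that most genes do not change, and tests are edgeR's quasi-likelihood test with Benjamini-Hochberg adjustment over all genes tested.

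Krt8, a type II keratin of simple epithelia, was at 3.08, 3.15 and 2.77 CPM with DMSO and at 32.1, 31.8 and 33.4 CPM with YJ1206. Every treated library was far above every control library. The log2 fold change was 3.43 (standard error 0.10, adjusted p = 6.69e-21). Its partner Krt18 did not accompany it to a like level, with 5, 4 and 8 counts after YJ1206 against 4, 3 and 4 before, a ratio of summed counts of 2.26 with a 95% exact interval of 0.997 to 5.33 that covers counting error only. In TPM, Krt8 was at 25.1 ± 0.45 and Krt18 at 0.471 ± 0.18 in YJ1206-treated cells. The annotation also holds a processed pseudogene of Krt8 that neither table lists, and whether reads from it were counted as Krt8 was not tested.

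Hoxb13, a homeobox factor of the prostate lineage, was at 10.5, 10.9 and 10.9 CPM with DMSO and at 20.0, 17.2 and 18.7 CPM with YJ1206. The groups did not overlap, and the log2 fold change was 0.79 (standard error 0.095, adjusted p = 2.38e-08). Foxa1, a forkhead pioneer factor, was at 268, 264 and 266 CPM with DMSO and 317, 311 and 307 CPM with YJ1206, a log2 fold change of 0.23 (adjusted p = 6.12e-08). With total counts the value was 0.041 (adjusted p = 0.185), and on the log2(TPM + 1) scale it was -0.078 (limma, adjusted p = 0.037). Fkbp5, a co-chaperone of steroid receptors that both androgen and glucocorticoid induce, was at 398, 400 and 389 CPM with DMSO and 438, 445 and 441 CPM with YJ1206, a log2 fold change of 0.16 (adjusted p = 4.97e-06). With total counts it was -0.030 (adjusted p = 0.276) and on the log2(TPM + 1) scale -0.18 (adjusted p = 0.000252). The median of all genes tested was -0.017 with TMM, -0.20 with total counts and -0.24 on the log2(TPM + 1) scale, so Foxa1 and Fkbp5 lay above that median under each scaling while their sign depended on it.

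Cdh1 had 4, 1 and 6 counts after YJ1206 against 1, 0 and 0 with DMSO. The ratio of summed counts was 16.1 with an exact interval of 2.33 to 691 that covers counting error only, and both groups stayed near the floor. Together with Krt18, Tmprss2 and Pbsn it had too few counts to be tested. All 4 genes tested had adjusted p-values under 0.05 and were higher, where 76.1% of all 11826 genes tested passed, 37.8% as higher and 38.3% as lower, and groups did not overlap in 77.5%, so passing is no mark of these genes. The 2 of them that kept their direction and their call under every alternative tried were Krt8 and Hoxb13.

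**Figure D2:**
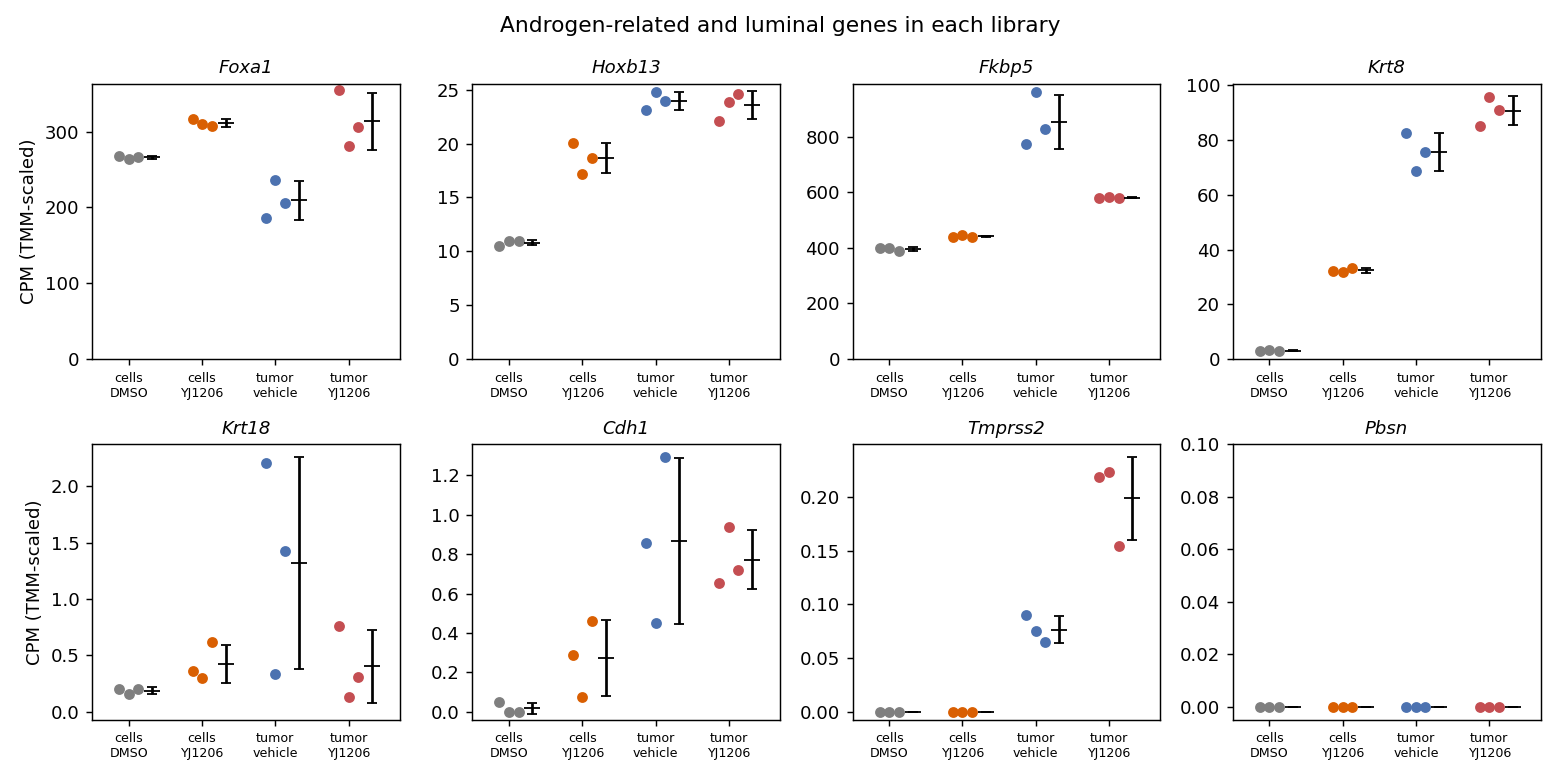
Level of the 8 genes in each of the 12 libraries, in CPM after TMM scaling within cells and within tumors, with the mean ± SD of 3 libraries as a black bar beside the points. Krt8 goes from 3.00 to 32.4 CPM on average in cells, and Tmprss2, Cdh1, Krt18 and Pbsn stay near 0.

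Among the wider lists, pioneer factors, cofactors and genes of hormone response moved in both directions in cells. Of 21 tested pioneer factors and cofactors, 14 were higher and 7 lower, with a median log2 fold change of 0.33, where 76.1% of all genes tested passed. With total counts the split was 11 and 7 with a median of 0.14, and on the log2(TPM + 1) scale 9 and 8 with a median of 0.077. Kdm1a, a histone demethylase, rose from 96.3, 87.1 and 86.7 CPM to 237, 237 and 248 CPM (log2 fold change 1.42, adjusted p = 1.25e-21). Ncoa3, a steroid receptor coactivator, rose from 52.7, 56.3 and 55.1 CPM to 99.0, 111 and 100.1 CPM (0.92, adjusted p = 8.11e-16). Grhl2, an epithelial transcription factor, fell from 49.6, 53.0 and 50.9 CPM to 17.0, 19.1 and 17.5 CPM (log2 fold change -1.52, adjusted p = 1.92e-17). Sox9, a progenitor factor, fell with a log2 fold change of -0.53 (adjusted p = 4.96e-08).

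Of 79 tested androgen response genes, 44 were higher, 26 lower and 9 did not pass, with a median of 0.16. This is 88.6% called, against 76.1% of all genes tested. With total counts the split was 36 higher and 34 lower, and on the log2(TPM + 1) scale 25 higher and 35 lower, so the list had no fixed direction. Among those with a mean of at least 5 CPM, Selenop, a secreted selenium carrier, followed Krt8 in size of increase, from 8.62, 9.09 and 9.02 CPM to 46.7, 46.0 and 46.5 CPM (log2 fold change 2.38, adjusted p = 1.54e-20). Mertk, a receptor tyrosine kinase, fell from 21.4, 22.5 and 22.1 CPM to 7.09, 7.02 and 7.08 CPM (-1.64, adjusted p = 1.31e-14), and Rps6ka3, an S6 kinase, fell with -1.25 (adjusted p = 1.57e-20).

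Fkbp5 is also a glucocorticoid target, so 12 genes of that group were read beside it. The glucocorticoid receptor gene Nr3c1 had 0 counts in all 6 cell libraries. Of 11 tested genes of the group, 8 were higher and 2 lower with YJ1206, with a median of 0.57. Calls made up 90.9% of them, against 76.1% of all genes tested. With total counts the split was 7 and 3 with a median of 0.38, and on the log2(TPM + 1) scale 5 and 4 with a median of 0.25, so the count of higher genes depended on the scaling. Tsc22d3, a glucocorticoid-induced leucine zipper gene, rose from 43.8, 36.6 and 34.3 CPM to 109, 104 and 110 CPM (log2 fold change 1.49, adjusted p = 1.91e-18). The metallothioneins Mt1 and Mt2, which bind metal ions, rose with log2 fold changes of 1.92 (adjusted p = 1.75e-21) and 3.72 (adjusted p = 8.29e-29). Klf9 and Zbtb16, zinc finger factors, fell with -0.96 (adjusted p = 1.64e-18) and -0.21 (adjusted p = 7.85e-05).

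Epithelial genes also split, where with TMM 76.1% of all genes tested passed, 37.8% as higher and 38.3% as lower. Of 17 tested luminal and simple epithelial genes, 11 were higher and 6 lower with TMM, against 5 higher and 8 lower on the log2(TPM + 1) scale. Elf3, an epithelial ETS factor, rose from 6.31, 5.11 and 5.24 CPM to 11.4, 11.3 and 14.6 CPM (log2 fold change 1.16, adjusted p = 8.50e-09). Esrp2, an epithelial splicing regulator, fell from 47.8, 41.1 and 41.5 CPM to 19.0, 17.4 and 17.5 CPM (-1.27, adjusted p = 1.19e-14). Of 9 tested partners of cadherins and desmosomes, 7 were higher and 2 lower, against 6 and 3 on the log2(TPM + 1) scale. The desmosomal plaque genes Pkp2 and Jup rose with log2 fold changes of 1.75 (adjusted p = 3.54e-20) and 0.95 (adjusted p = 9.20e-13), while Cdh1 itself stayed near the floor. Nectin2, an adhesion receptor, fell with -0.74 (adjusted p = 8.88e-09). Afdn, which links nectins to actin, was at -0.071 (adjusted p = 0.024), a call that was lost under 5 of 13 alternatives.

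The second comparison asked the same of tumors. Foxa1 rose 1.5-fold, Fkbp5 fell, and Hoxb13, Krt8, Krt18 and Cdh1 did not pass the test. With libraries 1 and 2 of each group only, 1 gene of 15684 passed, the early response gene Egr1, which belongs to none of the lists and is named after its value was seen. None of the other genes named here passed in that fit.

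Foxa1 was at 186, 237 and 205 CPM with vehicle and at 355, 281 and 306 CPM with YJ1206, with the lowest treated library above the highest control. The log2 fold change was 0.58 (standard error 0.11, adjusted p = 0.010). Without vehicle library 3 it was 0.57 (adjusted p = 0.052), and with libraries 1 and 2 only 0.59 (adjusted p = 0.181). Fkbp5 was at 772, 962 and 826 CPM with vehicle and fell to 579, 583 and 581 CPM with YJ1206, and the log2 fold change was -0.56 (standard error 0.084, adjusted p = 0.00417). With libraries 1 and 2 only it was -0.58 (adjusted p = 0.144). Vehicle library 2, which held the least muscle RNA, was the highest vehicle library for Foxa1 and Fkbp5. Among vehicle libraries it was the nearest to the YJ1206 libraries for Foxa1 and the farthest from them for Fkbp5. Summed CPM of 11 fibroblast genes was 2585, 1049 and 1956 with vehicle and 721, 1608 and 1276 with YJ1206, of 15 leukocyte genes 115 to 156 and 138 to 189, and of 8 endothelial genes 120 to 142 and 147 to 161. The part of muscle RNA and of these other cells in the tumor results was not tested.

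Hoxb13 was at 23.1, 24.8 and 23.9 CPM with vehicle and 22.1, 23.9 and 24.6 CPM with YJ1206. The groups overlapped, and the log2 difference was -0.024 (standard error 0.082, adjusted p = 0.862), or -0.060 with libraries 1 and 2 only. Krt8 was at 82.7, 68.9 and 75.8 CPM with vehicle and 85.2, 95.8 and 91.1 CPM with YJ1206, without overlap, with a log2 difference of 0.26 (standard error 0.083, adjusted p = 0.056) that passed when vehicle library 1 was left out (0.33, adjusted p = 0.027). With libraries 1 and 2 only it was 0.25 (adjusted p = 0.377).

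The low genes varied between tumors. Krt18 had 49, 9 and 22 counts with vehicle and 14, 3 and 6 with YJ1206 (log2 difference -1.72, standard error 0.79, adjusted p = 0.152), and without vehicle library 2 it passed (-2.23, adjusted p = 0.017), while with libraries 1 and 2 only it was -1.52 (adjusted p = 0.509). Cdh1 had 19, 12 and 20 against 12, 21 and 14 counts (-0.099, standard error 0.42, adjusted p = 0.888), and 0.31 with libraries 1 and 2 only (adjusted p = 0.783). Tmprss2 had 2, 2 and 1 against 4, 5 and 3 counts, too few for the test. The ratio of summed counts was 2.57 with an exact interval of 0.843 to 9.31 that covers counting error only. Estimated counts of Fkbp5 and Cdh1 were not whole in any tumor library (beyond a tolerance of 0.01), so part of their reads was divided between genes. In cells the estimated counts of Fkbp5 were likewise not whole in 4 libraries.

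Of the 6 genes tested in tumors, 1 was higher and 1 lower, 33.3%, against 26.8% of all 15558 genes tested (11.9% higher and 14.9% lower), and their median log2 fold change was -0.061 against 0.0091 for all. Groups did not overlap for Foxa1, Fkbp5 and Krt8, and for 44.6% of all genes tested.

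**Figure D3:**
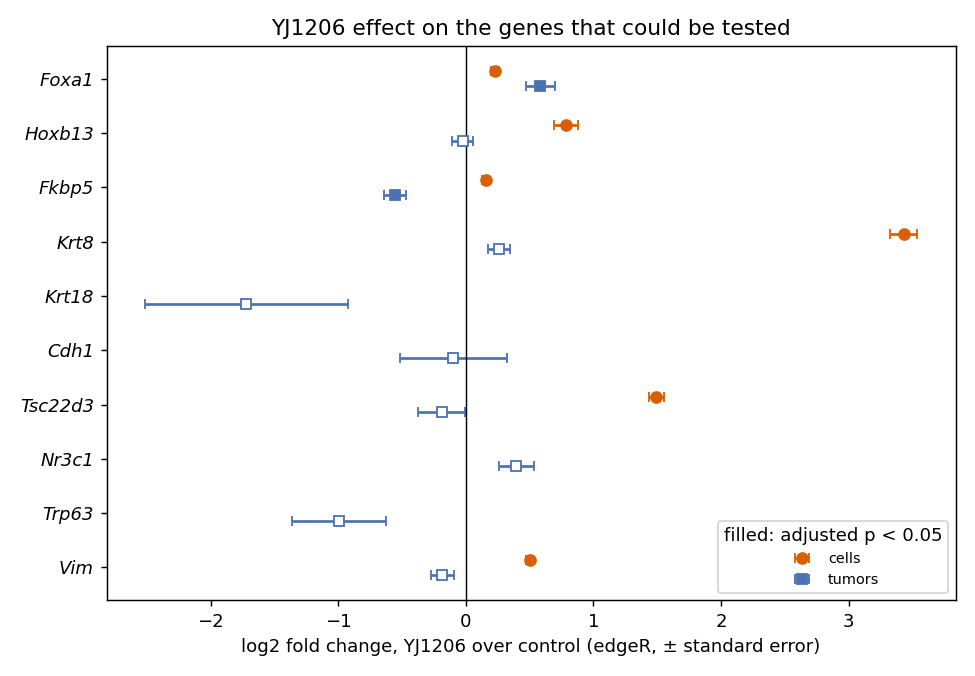
Log2 fold change with YJ1206 in cells (circles) and tumors (squares) for those of the 8 genes and 4 reference genes that could be tested, with standard errors from edgeR and filled symbols for an adjusted p under 0.05. Fkbp5 is at 0.16 in cells and -0.56 in tumors, and Krt8 at 3.43 and 0.26; the sign of Fkbp5 and of Foxa1 in cells turns with TPM, and that of Fkbp5 also with total counts.

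Of 24 tested pioneer factors and cofactors in tumors, 3 were higher, 3 lower and 18 did not pass. The share called was 25%, against 26.8% of all genes tested. Without vehicle library 3 the counts were 0 and 1. With YJ1206 library 2 or 3 left out they were 1 and 2 or 1 and 1, and without vehicle library 1 or 2 they were 1 and 4 or 5 and 4. Park7, which encodes the redox-sensitive protein DJ-1, rose beside Foxa1, from 134, 190 and 151 CPM to 211, 215 and 213 CPM (log2 fold change 0.43, adjusted p = 0.036), a call lost under 8 of 14 alternatives. Sox9 fell from 156, 96.4 and 131 CPM to 64.5, 77.4 and 74.1 CPM (log2 fold change -0.83, adjusted p = 0.012), a call lost under 3 of 14 alternatives. Hsp90aa1, which encodes the chaperone that holds unliganded steroid receptors, fell from 1192, 1152 and 1171 CPM to 823, 848 and 828 CPM (-0.49, adjusted p = 0.0012).

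Of 89 tested androgen response genes, 15 were higher, 20 lower and 54 did not pass, with a median of -0.0029. Calls made up 39.3% of the list, against 26.8% of all genes tested. Without vehicle library 3 the counts were 5 and 11, and without YJ1206 library 1, 2 or 3 they were 7 and 14, 6 and 13, and 5 and 10. Slc45a3, a prostate transporter gene also known as prostein, rose from 7.93, 28.8 and 15.0 CPM to 59.2, 46.8 and 48.3 CPM (log2 fold change 1.56, adjusted p = 0.026), a call lost under 5 of 14 alternatives. Selenop rose from 265, 438 and 328 CPM to 827, 802 and 817 CPM (1.25, adjusted p = 0.00277). Cenpn, a centromere gene, fell from 17.3, 15.6 and 16.6 CPM to 4.81, 8.19 and 5.10 CPM (-1.44, adjusted p = 0.00351), and Idi1, an enzyme of isoprenoid synthesis, fell with -1.28 (adjusted p = 0.00469).

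Of 12 glucocorticoid-shared genes, 4 were lower, Fkbp5 among them, and 8 did not pass. This is 33.3% called, against 26.8% of all genes tested. Without YJ1206 library 3 only 2 were lower, and without vehicle library 2 the counts were 1 higher and 5 lower. Errfi1, a feedback inhibitor of EGF receptor signaling, fell from 533, 458 and 502 CPM to 185, 207 and 195 CPM (log2 fold change -1.35, adjusted p = 0.000511). Dusp1, a MAP kinase phosphatase, fell with -1.03 (adjusted p = 0.022), a call lost under 5 of 14 alternatives. Tsc22d3 overlapped between groups, at 97.2, 170 and 121 CPM with vehicle and 121, 105 and 115 CPM with YJ1206 (adjusted p = 0.495). Nr3c1 was at 7.46 to 8.34 CPM with vehicle and 8.74 to 11.6 CPM with YJ1206 (log2 difference 0.40, adjusted p = 0.070). It passed without YJ1206 library 1 (0.50, adjusted p = 0.040) and on the log2(TPM + 1) and log2(TPM + 0.1) scales (0.59 and 0.75, limma, adjusted p = 0.038 for both), and was found in tumors only.

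Of 23 luminal and simple epithelial genes, 10 were higher, 2 lower and 11 did not pass, with a median of 0.29. The share called was 52.2%, against 26.8% of all genes tested (11.9% higher and 14.9% lower). Without vehicle library 3 the counts were 5 and 1, without YJ1206 library 2 they were 6 and 2, without YJ1206 library 3 they were 6 and 1, and with libraries 1 and 2 only none passed, with a median of 0.31. Tjp3, a tight junction scaffold, rose from 4.51, 8.66 and 5.69 CPM to 25.8, 21.3 and 22.0 CPM (log2 fold change 1.86, adjusted p = 0.00236). Cldn4, a tight junction claudin, rose from 28.4, 36.5 and 30.1 CPM to 91.9, 74.3 and 81.5 CPM (1.38, adjusted p = 0.000949). Cd24a, a surface glycoprotein, fell from 102, 71.5 and 87.1 CPM to 49.9, 49.4 and 50.8 CPM (-0.80, adjusted p = 0.00461), and Tjp1 fell with -0.27 (adjusted p = 0.011), a call lost under 3 of 14 alternatives. Of 13 cadherin and desmosome partners 2 were higher and 1 lower, 23.1% called against 26.8% of all genes tested. Jup rose from 115, 135 and 124 CPM to 180, 177 and 179 CPM (0.52, adjusted p = 0.00262), and Vcl, which anchors actin at junctions, fell with -0.38 (adjusted p = 0.00311).

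**Figure D4:**
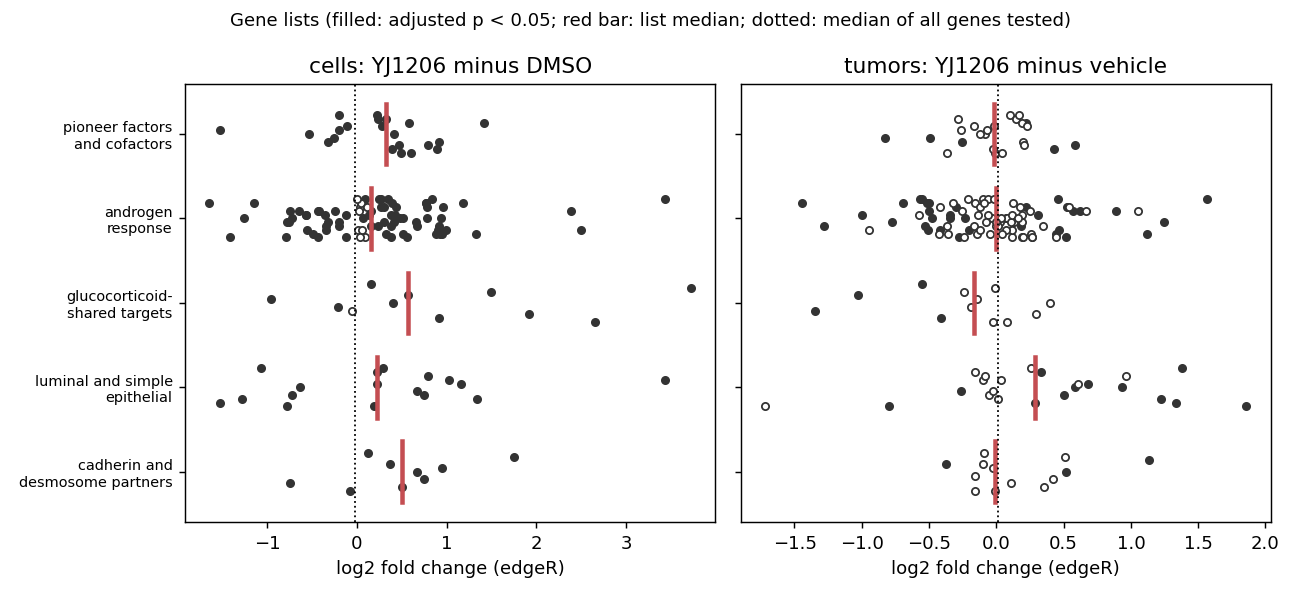
Log2 fold change with YJ1206 of each tested gene in 5 lists, in cells on the left and tumors on the right, with filled points for an adjusted p under 0.05, a red bar at the list median and a dotted line at the median of all genes tested. In tumors the luminal list has a median of 0.29 and the androgen response list of -0.0029; in cells the medians are 0.23 and 0.16 with TMM and turn to -0.070 and -0.071 on the log2(TPM + 1) scale.

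The third comparison set the effect in tumors against the effect in cells, as an interaction in a fit of all 12 libraries over the genes in both tables. In this fit cells and tumors shared the estimate of spread for each gene. Libraries of a tumor group differed more from each other than those of a cell group. The p-values of this fit therefore do not measure the spread among tumors alone. The effect on Krt8 was smaller in tumors (interaction -3.20 on the log2 scale, adjusted p = 3.01e-09), that on Hoxb13 gave -0.84 (adjusted p = 5.81e-05) and that on Fkbp5 -0.74 (adjusted p = 9.79e-06). For Foxa1 the interaction was 0.32 (adjusted p = 0.035), a call lost under 13 of 17 alternatives. Krt18 and Cdh1 gave -2.90 (adjusted p = 0.046) and -3.76 (adjusted p = 0.022), values that rest on cell libraries at or near the floor and on the prior count. All 6 genes tested passed, where 46.8% of all 15423 genes did (20.8% as higher and 26.0% as lower in tumors). Dose, time and route differ between the materials and cannot be told apart from them.

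Levels before treatment also differed between materials. In the same fit, 82.9% of genes differed between vehicle tumors and DMSO-treated cells, 46.7% higher and 36.2% lower, and all 6 genes tested did. Groups did not overlap for these 6, nor for 83.7% of all genes. Foxa1 was lower in vehicle tumors, with a log2 difference of -0.82 (adjusted p = 8.51e-07). Fkbp5 was higher by 0.63 (adjusted p = 4.75e-07), Hoxb13 by 0.67 (adjusted p = 6.70e-06) and Krt8 by 4.18 (adjusted p = 3.90e-12). Krt18 and Cdh1 were higher by 2.29 (adjusted p = 0.011) and 4.75 (adjusted p = 0.000281). These 2 values rest on cell libraries at or near the floor, and the Krt18 call was lost under 1 of 16 alternatives. Material, host cells and library series cannot be told apart here, and the median of all genes in this comparison was 0.19 with TMM and 0.56 with total counts. With total counts Foxa1 was at -0.45, still lower.

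Read as levels in TPM, the order of the 4 groups differed between genes. TPM is a share of each library. The cell and tumor tables list different sets of genes, and tumor libraries also hold RNA of host cells. An order across cells and tumors is therefore not on a common scale. Hoxb13 ran from 18.8 ± 0.29 TPM in vehicle tumors to 17.6 ± 0.84 in YJ1206 tumors, 12.6 ± 0.99 in YJ1206-treated cells and 9.03 ± 0.22 in DMSO-treated cells, with no neighbours overlapping. Krt18 and Cdh1 had the same order of means at low levels, Krt18 from 1.71 to 0.259 TPM and Cdh1 from 0.323 to 0.00945 TPM. For both the tumor groups overlapped, and for Krt18 YJ1206 tumors also overlapped YJ1206-treated cells. Fkbp5 ran from 485 ± 48.0 TPM in vehicle tumors to 315 ± 6.89 in YJ1206 tumors, 203 ± 1.68 in DMSO-treated cells and 179 ± 1.74 in YJ1206-treated cells, with no neighbours overlapping. Foxa1 was at 157 ± 20.9, 148 ± 1.73 and 140 ± 3.29 TPM in YJ1206 tumors, DMSO-treated and YJ1206-treated cells, and was lowest in vehicle tumors at 110 ± 10.9. YJ1206 tumors overlapped both cell groups, which did not overlap each other. Krt8 was at 77.4 ± 3.56 TPM in YJ1206 tumors and 68.2 ± 7.60 in vehicle tumors, which overlapped, at 25.1 ± 0.45 in YJ1206-treated cells and at 2.88 ± 0.18 in DMSO-treated cells.

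Likeness of pattern was read as the Pearson correlation of log2(CPM + 1) after the mean of each material was subtracted, as a description and with no test. Among 9237 other genes with at least 5 CPM in each material, the genes most like Krt8 were Supt5 (0.997), Impdh1 (0.997) and Eif4b (0.997). Those most like Hoxb13 were Cldn3 (0.988), Cnot8 (0.985) and Ptms (0.983). Those most like Fkbp5 were Igf2bp2 (0.990), Anp32a (0.989) and H3f3b (0.988). Those most like Foxa1 were Ptgs1 (0.979), Sh3pxd2a (0.975) and Osbpl1a (0.966). Each value is a correlation over 12 libraries that share their treatment groups.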

How the data were processed

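RNA from 12 libraries was analysed. The authors deposited, for cells and for tumors, estimated counts per gene, not scaled between libraries, and TPM values, scaled within each library for gene length. The submitters' processing notes name kallisto, GRCm38 and mm10, and the annotation release is not given in the sources used here. For the cells the labels give polyA RNA, while the protocol removes ribosomal RNA enzymatically. The study's methods state that replicates were independent.

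Estimated counts were rounded to whole numbers, since the tables proved not to hold whole counts. Cells and tumors were fitted separately in edgeR 4.0.16 (R 4.3.3, quasi-likelihood test after filterByExpr and TMM, adjusted p under 0.05, Benjamini-Hochberg), and all 12 together for differences between materials, with gene identifiers matched without versions. Genes with too few counts were given as summed counts with exact 95% intervals, which cover counting error and not the spread between libraries. Alternatives were DESeq2 1.42.0, its size factors, total counts, no filter, limma 3.58.1 on log2(TPM + 1) and log2(TPM + 0.1), each library left out, a replicate block, and libraries 1 and 2 only. The TPM scales were run for the separate fits and not for all 12 together. Libraries 1 and 2 only was run for the tumor fit. The steps were tested on simulated counts.

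The genes and lists were chosen with earlier results of these data known. Named are the 8 genes, Nr3c1, Tsc22d3, Epcam, Vim, Krt5 and Trp63, from each of 5 lists and each experiment the 2 largest increases and 2 largest decreases (adjusted p under 0.05, mean of at least 5 CPM, no overlap), and the 3 genes most correlated with each gene. Other genes named from lists were picked after their values were seen. Some genes that this rule or the lists held are not reported here, and lists were counted without them.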

Additional observations from a re-analysis of the deposited data

Results flagged for a closer look

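Results are given here because the effect of YJ1206 in tumors differed from its effect in cells in the interaction test of edgeR (Benjamini-Hochberg adjustment, 12 libraries). Cells and tumors shared the estimate of spread in that test, so its p-values do not measure the spread among tumors alone. On the log2 scale, tumors minus cells, the difference was -3.20 for Krt8 (adjusted p = 3.01e-09), -0.84 for Hoxb13 (adjusted p = 5.81e-05) and -0.74 for Fkbp5 (adjusted p = 9.79e-06). These 3 kept their sign and their call in all 17 alternatives run for this fit. The TPM scales, and libraries 1 and 2 only, were not among these alternatives. In the separate fits Fkbp5 in cells turned to -0.18 on the log2(TPM + 1) scale. In tumors with libraries 1 and 2 only, Fkbp5 was at -0.58 and lost its call.

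The difference was 0.32 for Foxa1 (adjusted p = 0.035), -2.90 for Krt18 (adjusted p = 0.046) and -3.76 for Cdh1 (adjusted p = 0.022). These lost their call in 13, 11 and 3 of the 17 alternatives, with the same sign in each. Of all 15423 genes tested, 46.8% passed. Groups of 3 libraries were not tested for outlying samples.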

How the results depend on the processing

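In cells, Krt8 and Hoxb13 kept direction and call in all 13 alternatives. Foxa1 was weaker with total counts (0.041) and turned to -0.078 on the log2(TPM + 1) scale and -0.079 on the log2(TPM + 0.1) scale, and Fkbp5 turned to -0.030, -0.18 and -0.18 under the same 3 settings. Of called genes 49.7% were higher with TMM, 36.1% with total counts and 29.2% with either TPM scale. In tumors the share was 44.4% with TMM and 33.8% on the log2(TPM + 0.1) scale. The share higher was 61.5% with total counts against 44.5% for the interaction, and 72.2% against 56.3% for vehicle tumors minus DMSO-treated cells.

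In tumors 4176 genes passed. With each library left out 1877 to 5724 passed: 1938 without vehicle library 3, and 2739 or 1877 when YJ1206 library 2 or 3 was left out. With libraries 1 and 2 of each group only, 1 passed, 3068 had an unadjusted p under 0.05, and Foxa1 was at 0.59, Fkbp5 at -0.58 and Cdh1 at 0.31, none called. With libraries left out in turn, Foxa1 ranged from 0.48 to 0.68, Hoxb13 from -0.061 to 0.017, Krt8 from 0.19 to 0.33, Krt18 from -2.55 to -1.05, Cdh1 from -0.43 to 0.26 and Tsc22d3 from -0.36 to 0.061, with reversed values of 0.0042 and 0.017 for Hoxb13, 0.26 for Cdh1 and 0.061 for Tsc22d3. The cause of these changes was not tested.

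Same-numbered libraries did not deviate together over all genes (correlations of -0.030 to 0.0032). This gave no sign that the numbers pair them and does not exclude it. With the replicate block 8905 genes passed in cells and 3477 in tumors, and Krt18 in tumors was at -1.70 (adjusted p = 0.029, edgeR).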

Other observations

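Basal epithelial and neuroendocrine genes were read beside the luminal ones. Krt5, a basal keratin, had 0 counts in all 6 cell libraries and 1 count in each tumor group. Trp63, the basal p63 factor, gave 7, 10 and 14 counts in DMSO-treated and 0, 1 and 0 in YJ1206-treated libraries of the cells. The ratio of summed counts was 0.0471 with an exact interval of 0.00116 to 0.282 that covers counting error only. In tumors Trp63 was at 2.39, 6.0 and 3.49 CPM with vehicle and 2.62, 1.57 and 1.86 CPM with YJ1206, with overlap (log2 difference -0.99, adjusted p = 0.089, edgeR). Krt15, picked after its values were seen, was at 998 TPM in DMSO-treated cells and 680 TPM in vehicle tumors. It was lower with YJ1206 in cells (log2 fold change -0.21, adjusted p = 2.96e-07) and in tumors (-0.57, adjusted p = 0.040).

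Among all genes tested, 76.1% passed in cells (37.8% higher and 38.3% lower) and 26.8% in tumors (11.9% higher and 14.9% lower). Of 7 tested basal genes 3 were higher and 3 lower in cells, and in tumors 3 were lower and 4 did not pass. Leaving out vehicle library 3, YJ1206 library 2 or YJ1206 library 3 left 1 lower in each case, and with libraries 1 and 2 only none passed, in edgeR. Of 12 neuroendocrine genes 2 could be tested in cells, both lower, and 4 in tumors, which did not pass. Vim rose in cells from 334, 363 and 343 CPM to 482, 481 and 507 CPM (edgeR log2 fold change 0.50, adjusted p = 3.29e-14). In tumors it was at 160, 164 and 161 CPM with vehicle and 125, 160 and 142 CPM with YJ1206 (-0.18, adjusted p = 0.174). Of 5 mesenchymal genes tested in cells, Vim included, 2 were higher and 2 lower with a median of -0.12. On the log2(TPM + 1) scale 1 was higher and 3 lower. Of 12 mesenchymal genes tested in tumors 3 were lower and 9 did not pass, and 1 was lower without vehicle library 3 or without YJ1206 library 3.

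Of 13 seminal vesicle and secretory prostate genes, 10 had no count in any DMSO-treated library and 5 had none in any vehicle tumor. The gene that could be tested in cells was Nupr1, a stress response gene, which was also the gene of this list called in tumors. Its log2 fold change with YJ1206 was 1.74 in cells (adjusted p = 8.29e-13) and 0.92 in tumors (adjusted p = 0.017). The tumor call was lost without vehicle library 3, without YJ1206 library 2 and without YJ1206 library 3.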
